A study of Ovis aries with 6 samples.

Results

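The hormones described here are 4 genes that act on the hair cycle: insulin-like growth factor 1 (IGF1), its carrier protein IGFBP3, prolactin (PRL) and leptin (LEP). Their probes were found by the sequence name that the array gives, through RefSeq gene names or the annotation in the study's list of differential probes. They are 4 of 729 genes that could be named on the array. Together they have 7 probes of the 15008 on the array: 1 for IGF1, 1 for IGFBP3, 2 for PRL and 3 for LEP. The RNA came from full-thickness skin of Aohan fine wool sheep aged 16 months, taken in December from 1 ram and 2 ewes that shared a father. Body side skin, which bears wool, was compared with groin skin of the same animals, which does not. No treatment is given for the animals. Each area has 3 one-colour Agilent arrays, numbered replicates 1 to 3. The labels do not say which arrays share an animal, so the p-values measure only the spread between 3 arrays of each area, and that number limits the precision.

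IGF1 is made by dermal papilla cells and other cells of the skin, and it keeps the hair follicle in its growth phase through the IGF1 receptor. IGFBP3 binds IGF1 in blood and tissue and can keep it from its receptor. Prolactin is best known as the pituitary hormone of lactation; its level follows day length in sheep, and skin carries its receptor, which signals through JAK2 and STAT5. Leptin is the hormone of fat cells, and its receptor signals through STAT3.

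The hormone probes were dim, with processed signals between 3.66 and 89.5 intensity units. The median processed signal was 97.5 to 130 on the body side arrays and 180 to 193 on the groin arrays. Between 74.1% and 76.0% of spots were well above background on the body side arrays and between 79.6% and 92.3% on the groin arrays. Groin replicate 1 stood apart at 92.3%, and no spot was saturated. Because the areas differ in overall signal, each hormone is given first as the processed signal, which is not scaled between arrays, and then after quantile normalization, which gives every array the same distribution. The median unscaled difference over all tested probes was -0.47 (log2, body side minus groin), against 0.09 after quantile normalization. A probe was called when limma gave a 2-fold or larger difference and an adjusted p (Benjamini-Hochberg) below 0.05 over the 13929 probes tested. By this rule 1170 probes were called, which is 8.4%, with 3.53% called higher and 4.87% called lower in body side skin. The 491 higher and 679 lower calls became 276 and 869 when arrays were scaled to their 75th percentile, and 56 and 2293 without scaling. The count also rested on single arrays, at 2937 without body side replicate 1 and 44, 64, 13 and 11 without body side replicates 2 and 3 and groin replicates 2 and 3.

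Of the 7 hormone probes, 2 were called: PRL (A_70_P030242) and one LEP probe (A_70_P017127), both higher in body side skin. The hormones were chosen with earlier results of these data known, so this count is not independent of those results. IGF1 and a second LEP probe were higher with no overlap between areas after quantile normalization, but did not pass the test. The IGFBP3 probe was lower in body side skin with no overlap on either scale, and also missed the adjusted threshold. In processed signal the areas overlapped at IGF1, at the called PRL probe and at the called LEP probe. Over all probes with complete values, 25.9% lay above without overlap and 17.9% below after quantile normalization. Before it, 5.74% lay above and 41.8% below.

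**Figure D1:**
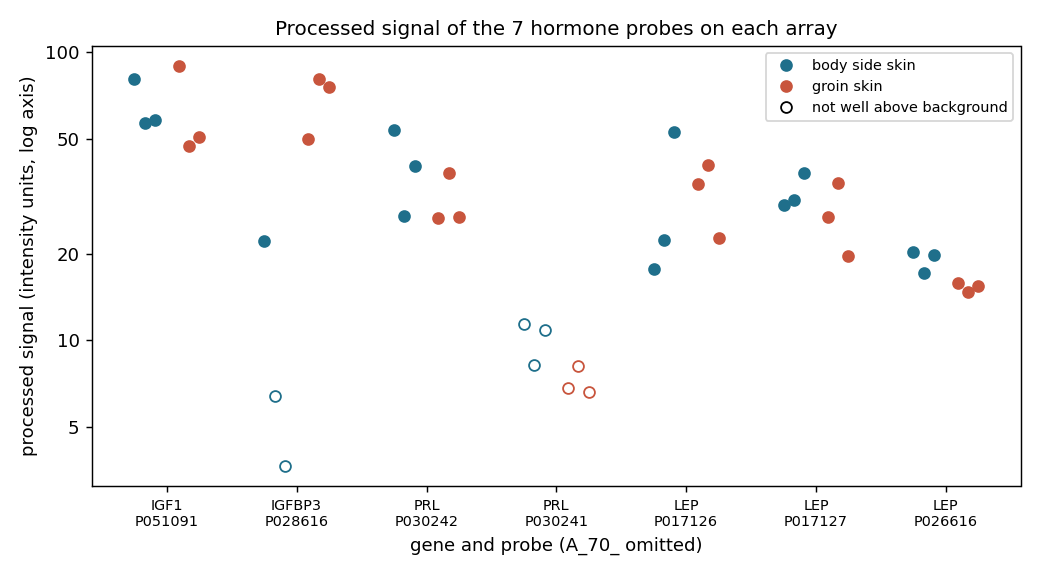
Processed signal (intensity units, log axis) of the 7 hormone probes on each array, with replicates 1 to 3 from left to right, body side in blue and groin in red. Hollow points are not well above background. The areas separate at IGFBP3, at the second PRL probe and at LEP probe A_70_P026616, and overlap at the other 4 probes.

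The IGF1 probe (A_70_P051091) was well above background on all 6 arrays. Its processed signal was 80.8, 56.7 and 57.9 on body side replicates 1 to 3 and 89.5, 47.2 and 50.8 on groin replicates 1 to 3. Replicate 1 was the highest array of each area, and the areas overlapped. The scanner's own error for this spot had a median of 11.2% of the signal. After quantile normalization the IGF1 signal averaged 6.41 ± 0.12 (log2, SD, n = 3) on the body side arrays against 5.51 ± 0.47 (SD, n = 3) on the groin arrays. Each body side array then lay above each groin array. The log2 difference was 0.91 (standard error 0.26, 95% interval 0.28 to 1.53, adjusted p = 0.062 from limma), a 1.88-fold difference that was not called. Without scaling the log2 difference was 0.10, or 1.07-fold. Of the fits with 1 array left out, IGF1 was called only in that without groin replicate 1, at a log2 difference of 1.20 (adjusted p = 0.028 from limma).

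The IGFBP3 probe (A_70_P028616) showed the largest difference among the hormones. Its processed signal was 22.2, 6.39 and 3.66 on body side replicates 1 to 3 and 49.9, 80.9 and 75.8 on groin replicates 1 to 3. All 3 groin arrays were well above background, but of the body side arrays only replicate 1 was. The normalized signal averaged 3.49 ± 1.19 (log2, SD, n = 3) on the body side arrays against 5.61 ± 0.47 (SD, n = 3) on the groin arrays. Since 2 body side arrays were not well above background, the fold is a bound on the difference of the normalized means. The mean was lower in body side skin by at least 2.62-fold, set against the lowest signal well above background on each array. This bound leaves out the spread between arrays, and the 95% interval of the fit reaches smaller differences. The fitted log2 difference was -2.11 (standard error 0.61, 95% interval -3.59 to -0.63, adjusted p = 0.063 from limma). Its sign was negative under every normalization tried, from -3.07 without scaling to -0.47 with normexp background correction. Without body side replicate 1, the brightest body side array for this probe, the difference was -2.68 and passed the test (adjusted p = 0.0091 from limma).

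IGF1 and its carrier can also be set against each other within an array, where no scaling enters. Probes differ in how strongly they bind their target, so only the change of this ratio between areas is described. The log2 ratio of IGF1 to IGFBP3 signal was 1.86, 3.15 and 3.98 on body side replicates 1 to 3 and 0.84, -0.78 and -0.58 on groin replicates 1 to 3. Every body side array exceeded every groin array, with a difference of 3.17 between the means. This ratio was chosen after its values were seen and has no test, and on 2 body side arrays it rests on an IGFBP3 signal not well above background.

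Prolactin was measured by 2 probes of the same RefSeq sequence. The probe A_70_P030242 was well above background on all 6 arrays. Its processed signal was 53.7, 27.1 and 40.2 on body side replicates 1 to 3 and 26.6, 37.9 and 26.9 on groin replicates 1 to 3. Body side replicate 2 lay among the groin arrays, so the areas overlapped. After quantile normalization the PRL signal averaged 5.70 ± 0.27 (log2, SD, n = 3) on the body side arrays against 4.34 ± 0.61 (SD, n = 3) on the groin arrays, without overlap. The log2 difference of 1.36 (standard error 0.33, 95% interval 0.55 to 2.18, adjusted p = 0.047 from limma) was called, a 2.57-fold rise in body side skin. The unscaled difference was 0.37, or 1.29-fold, and scaling to the 75th percentile gave 0.81 (adjusted p = 0.091 from limma). The call was lost with any 1 of the 6 arrays left out, where the difference ranged from 1.07 to 1.59 (adjusted p = 0.057 to 0.15 from limma).

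The other PRL probe (A_70_P030241) has 5 spots. Of its 30 spots on the 6 arrays 9 were well above background, 1 or 2 on each array, and a probe counts as well above background on an array only where more than 50% of its spots are. It therefore passed on no array, was not tested in the main fit and gives no fold. With no filter on dim probes it was called at a log2 difference of 1.47 (standard error 0.34, adjusted p = 0.044 from limma). That fit rests on values that passed the background limit on no array. Averaged over its spots, it read 11.4, 8.19 and 10.8 on the body side arrays and 6.84, 8.16 and 6.60 on the groin arrays. The body side values were the higher, though body side replicate 2 and groin replicate 2 nearly met. The median error of a single spot was 27.2% of its signal. The unscaled log2 difference was 0.49, and it is not taken as support for the other probe.

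Leptin was measured by 3 probes, of which 2 (A_70_P017126 and A_70_P017127) carry the same sequence name and the third (A_70_P026616) another. Each of the 3 passed the background limit on all 6 arrays. The names of A_70_P017127 and A_70_P026616 come from the study's list of differential probes, so those probes had been chosen for a difference in these samples, whereas A_70_P017126 is named here through the sequence it shares. Probe A_70_P017127 read 29.5, 30.6 and 38.2 on the body side arrays and 26.9, 35.2 and 19.5 on the groin arrays, and groin replicate 2 lay within the body side range. Its normalized signal averaged 5.47 ± 0.30 (log2, SD, n = 3) on the body side arrays against 4.19 ± 0.54 (SD, n = 3) on the groin arrays. The log2 difference of 1.27 (standard error 0.32, adjusted p = 0.048 from limma) was called, at 2.41-fold. It was 0.30 without scaling, and of the 6 fits with 1 array left out only that without body side replicate 1 kept the call, at 1.42 (adjusted p = 0.026 from limma).

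The partner probe of the same sequence, A_70_P017126, did not follow it array by array. It read 17.7, 22.3 and 52.9 on the body side arrays and 35.0, 40.6 and 22.7 on the groin arrays. Body side replicate 3 was the highest of all 6 arrays and replicates 1 and 2 the lowest. The normalized log2 difference was 0.71 (standard error 0.46, adjusted p = 0.30 from limma), with overlap between areas, and the unscaled difference was -0.21. Without body side replicate 3 the normalized difference was 0.26. The third probe, A_70_P026616, varied least between arrays in processed signal. It read 20.2, 17.1 and 19.8 on the body side arrays and 15.8, 14.8 and 15.5 on the groin arrays, so the areas did not overlap, while the median spot error was 17.6% of the signal. Its unscaled log2 difference was 0.31, or 1.24-fold. After quantile normalization groin replicate 1 fell to 2.12 (log2), apart from 3.61 and 3.78 on the other groin arrays, and the difference was 1.51 (standard error 0.44, adjusted p = 0.066 from limma), not called. Without groin replicate 1 it was 1.06 and called (adjusted p = 0.029 from limma).

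**Figure D2:**
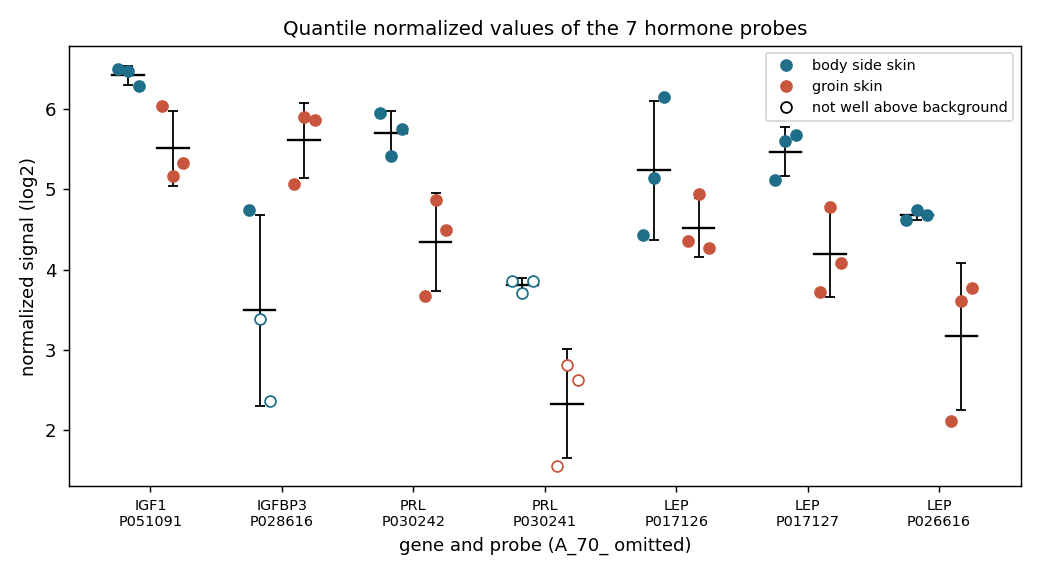
Quantile normalized signal (log2) of the 7 hormone probes on each array, body side in blue and groin in red, with the mean (bar) and SD (whiskers) of the 3 arrays of each area. Hollow points are not well above background. Body side lies above groin without overlap at IGF1, both PRL probes and 2 LEP probes, below it at IGFBP3, and overlaps it at LEP probe A_70_P017126.

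The size of each difference changed with the normalization. For IGF1, PRL and the 3 LEP probes, quantile normalization gave log2 differences of 0.71 to 1.51, the 75th percentile 0.24 to 0.81, and no scaling -0.21 to 0.37. With normexp background correction before quantile normalization they were 0.19 to 0.33. Among all tested probes, 2.77% rose by as much as PRL after quantile normalization, 3.60% as much as LEP probe A_70_P017127 and 10.3% as much as IGF1. Without scaling, 7.83% were at least as high as PRL, 9.74% as LEP probe A_70_P017127 and 17.5% as IGF1. For the lower level of IGFBP3 those shares were 2.01% and 1.5%. The arrays sit in 2 rows of a slide, each holding both areas. Within row 1 and row 2 the log2 difference was 1.33 and 0.99 for PRL, 1.70 and 0.62 for LEP probe A_70_P017127, 0.79 and 1.22 for IGF1 and -2.08 and -2.34 for IGFBP3. Each row has a single array of 1 area, and no probe of the whole array was called within a row, so these are given as values. Of the 3 slide columns only the second holds both areas, 1 array of each, and there the differences were 1.46, 1.03, 1.17 and -1.13 in the same order. A fit with the column as a block gives these same values, none called (adjusted p = 0.44, 0.51, 0.42 and 0.54 from limma), and it called no probe of the whole array.

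**Figure D3:**
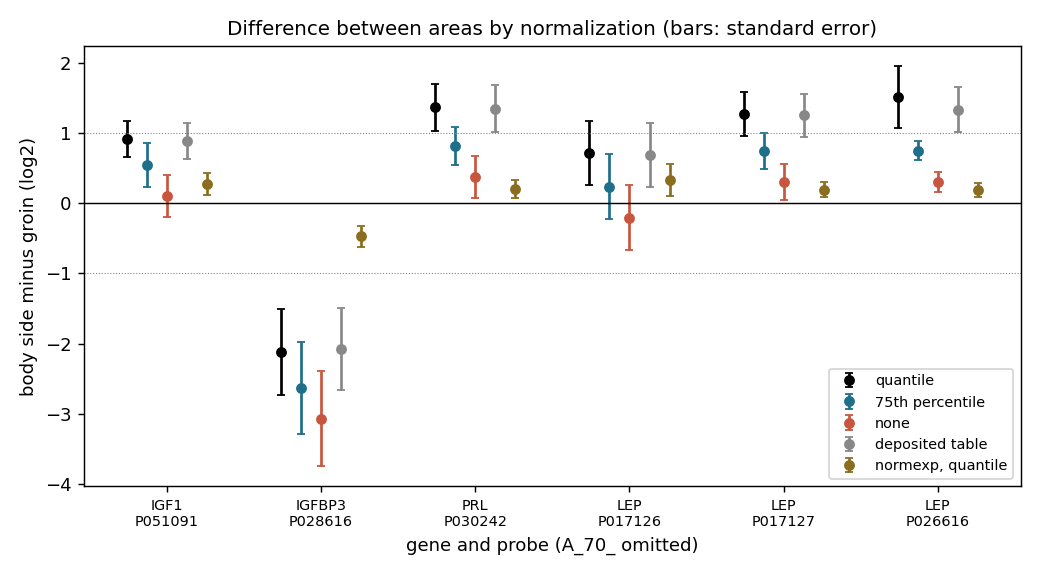
Difference between areas (body side minus groin, log2) for the 6 tested hormone probes under 5 ways of processing, with standard errors as whiskers. Dotted lines mark a 2-fold difference. The IGF1, PRL and LEP values lie closer to 0 without scaling than after quantile normalization, and IGFBP3 lies below 0 in each.

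The receptors of prolactin and leptin have 4 probes each, several of which were above the background limit in groin skin alone. Such probes enter the test only through the area where they are high. Of the 498 tested probes well above background on no body side array and at least 2 groin arrays, 30.9% were called lower, against 4.87% of all tested probes. The prolactin receptor (PRLR), a cytokine receptor of the cell surface, has 4 probes from 2 sequences, whose normalized differences had opposite signs. The 2 probes that the study's list annotates as the long form were near or below the background limit in body side skin. Probe A_70_P041091 read 8.36, 2.39 and 3.74 on the body side arrays and 70.1, 49.5 and 49.4 on the groin arrays. It was well above background on the groin arrays only, and was called as lower by at least 2.66-fold (fitted log2 difference -2.76, standard error 0.39, adjusted p = 0.019 from limma). Its partner A_70_P041092 was called as lower by at least 2.61-fold (fitted log2 difference -3.0, adjusted p = 0.016 from limma). These probes entered through a list of differential probes, so their direction is not independent evidence.

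The PRLR probes of the other sequence, named through RefSeq, were not called. Probe A_70_P050956 read 19.9, 16.4 and 24.2 on the body side arrays and 21.5, 18.6 and 16.9 on the groin arrays, with overlap. Its normalized log2 difference was 1.14 (standard error 0.29, adjusted p = 0.050 from limma), just above the threshold, and its partner A_70_P050957 had 0.82 (standard error 0.64, adjusted p = 0.39 from limma), which turned to -0.40 without scaling. A_70_P050956 was called with signals under 5 set to 5, with the filter set to all 6 arrays, and without body side replicate 1, while its unscaled difference was 0.07. The log2 ratio of A_70_P050956 to A_70_P041091 within an array was 1.25, 2.78 and 2.69 on the body side arrays and -1.71, -1.41 and -1.55 on the groin arrays. The difference of 3.80 between areas needs no scaling, but the pair was chosen after its values were seen, and the denominator was not well above background on the body side arrays. The 2 long-form probes kept the call without replicate 1 of either area, and lost it with each of the other 4 arrays left out.

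All 4 probes of the leptin receptor (LEPR) were below the background limit on all 3 body side arrays. Probe A_70_P056811 read 2.70, 3.0 and 2.74 there and 41.7, 22.5 and 28.8 on the groin arrays, all 3 well above background. It was called as lower by at least 1.44-fold (fitted log2 difference -2.72, standard error 0.31, adjusted p = 0.014 from limma). Probe A_70_P039556 was called with a bound of at least 1.19-fold, and A_70_P056812 was called but gives no fold, since only 2 groin arrays measured it well above background. The fourth, A_70_P039557, was well above background on groin replicate 1 alone and was not among the called probes (-0.54, limma adjusted p = 0.36). With groin replicate 1 left out, the difference of A_70_P056811 was -2.70 (adjusted p = 0.027 from limma). It lost its call without body side replicate 3, without groin replicate 2 and without groin replicate 3. No probe was named here for the receptors IGF1R and INSR. The growth hormone receptor (GHR), which drives IGF1 synthesis, differed by 0.54 (log2, standard error 0.28, adjusted p = 0.21 from limma).

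Of 68 further genes listed for these hormone axes, 22 had a probe with a RefSeq name and 20 were tested, with 31 probes. Among them 8 probes were called, 6 lower and 2 higher, beside 11.1% called among all tested probes with a RefSeq name. The 3 LEPR probes and the GHRL probe among the 6 lower ones were not well above background on any of the 3 arrays from wool-bearing skin. The genes with a called probe were GHRHR and OXT, which were higher in body side skin, and GHRL, STAT5A, LEPR and POMC, which were lower. The median over the 20 genes, each the mean of its probes, was a log2 difference of -0.01, against 0.09 over all tested probes. The 6 genes became 12 without body side replicate 1, 3 without groin replicate 1, 1 without body side replicate 2, and 0 without body side replicate 3, groin replicate 2 or groin replicate 3.

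In the IGF and growth hormone axis, GHRHR, the pituitary receptor for growth hormone releasing hormone, was called 2.39-fold higher, and was 1.31-fold higher without scaling. Its signals were 78.4, 80.4 and 103 on the body side arrays and 49.7, 76.0 and 76.3 on the groin arrays, without overlap. One probe of ghrelin (GHRL, A_70_P051201), the stomach peptide that releases growth hormone, was called lower although it gives no fold, since it was well above background on 1 groin array and no body side array. That array was groin replicate 1, at 60.1 against 10.4 and 10.3 on the other groin arrays, and the probe was tested through it alone. The growth factor IGF2 had 2 probes with log2 differences of -0.46 and -0.21, and IGFBP5 had -0.29 and 0.01, none of them called. IGFBP1, which also binds IGF1, was not called (-1.16, adjusted p = 0.28 from limma). The tested IGFBP2 probe has a value on only 1 body side array, as outlier spots were left out on the others, and no difference is given for it.

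STAT5A, the transcription factor that the prolactin receptor activates, has 2 probes with lower values in body side skin, of which 1 was called. The called probe (A_70_P039387) read 122, 47.1 and 49.6 on the body side arrays and 277, 276 and 262 on the groin arrays. Its log2 difference was -1.26 (standard error 0.29, adjusted p = 0.042 from limma), which is a 2.40-fold fall, and the other probe had -1.09 (adjusted p = 0.054 from limma). The call was kept only without body side replicate 1 among the fits with 1 array left out, as were those of GHRHR and OXT. In the shared PI3K-AKT branch, AKT1 had a log2 difference of -1.62 (adjusted p = 0.10 from limma). The kinase AKT2 (1.23) and the kinase subunit PIK3R1 (-1.41) were called, but both are named only through the study's list of differential probes. AKT2 was well above background on only 1 groin array, and its unscaled difference was 0.17, with overlap between areas.

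Among other skin hormones, one probe of POMC, the precursor of melanocortins and ACTH, was called 2.06-fold lower, and its second probe, at -0.91 (adjusted p = 0.023 from limma), missed only the fold threshold. One probe of oxytocin (OXT) was called 2.54-fold higher, with signals of 277, 428 and 478 on the body side arrays and 266, 220 and 235 on the groin arrays. It was 1.60-fold higher without scaling. The second OXT probe, at 1.11, was not called (adjusted p = 0.061 from limma), and its unscaled signals overlapped.

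Whole skin holds many cell types, so fewer cells of a type and less RNA per cell cannot be told apart. Of the adipocyte markers, the cells known for leptin, 3 of 12 were tested under a RefSeq name, with 4 probes. Called lower were 1 of the 2 probes of LPL, which takes up fat from blood (the other had adjusted p = 0.089 from limma), and the probe of SCD, which makes unsaturated fatty acids. All 3 of these probes were below the background limit on every body side array, a class in which 30.9% of probes were called lower. The third gene, PPARG, was far brighter and not called, at -0.52 with overlap (adjusted p = 0.34 from limma). DGAT2, named only through the study's list of differential probes, was called at -1.04 and was well above background on all 6 arrays. The summed normalized adipocyte signal was 4865 to 10035 on the body side arrays and 7560 to 12396 on the groin arrays, with overlap. This sum holds only probes with a RefSeq name and a value on all 6 arrays, and PPARG supplies nearly all of it. The called LEP probe was higher where the LPL, SCD and DGAT2 probes were lower. The part of adipocytes in the leptin values was not tested. None of the tested anterior pituitary, mammary, hair follicle, keratinocyte, dermal fibroblast or muscle markers was called. Few were tested under a RefSeq name: 3 of 9 hair follicle, 1 of 6 keratinocyte, 1 of 9 fibroblast and 3 of 11 muscle genes. A pituitary and a mammary probe missed only the fold threshold, both higher in body side skin. They were CGA probe A_70_P039422, at 0.98 (adjusted p = 0.029 from limma), and CSN3, at 0.83 (adjusted p = 0.041 from limma). In processed signal the areas overlapped at both. The other CGA probe was well above background on no array. COL1A2, named only through the study's list, had -1.05 (adjusted p = 0.051 from limma), not called. COL3A1 probes named through it or a shared sequence name had fitted differences of -3.88 and -3.22, also not called. Of the body side arrays, only replicate 1 measured them well above background. The summed normalized pituitary signal was 108 to 173 on the body side arrays and 79.5 to 85.1 on the groin arrays. The summed processed signals, at 93.7 to 131 and 94.7 to 150, overlapped. Both sums leave out LHB probe A_70_P039602, which has no value on body side replicate 3. That probe was far brighter, at 6440 and 6668.7 on body side replicates 1 and 2 and 7467.5 to 8848.7 on the groin arrays. Its normalized log2 difference was -0.22, opposite in sign to the summed normalized signal. POU1F1, the factor that switches on prolactin in the pituitary, was below the background limit on all 3 body side arrays. In groin skin it was hardly detected either. Probe A_70_P039251 passed the limit on no groin array, and probe A_70_P039252 passed it on groin replicate 1 alone. The mammary markers summed to 881 to 1094 and 443 to 651 after normalization. In processed signal they summed, with overlap, to 717 to 879 and 589 to 842. The casein genes CSN1S1 and CSN1S2 were not well above background on any array. PAEP, CSN3 and 1 of the 2 probes each of CSN2 and LALBA were so on all 6 arrays. That CSN2 probe and the CSN3 probe were the brightest of the mammary markers. The CSN2 probe had a log2 difference of 0.94 (adjusted p = 0.076 from limma), not called. Of the blood and immune markers, the haemoglobin gene HBB was called higher at 1 of its 2 probes. Its log2 difference was 2.34 (adjusted p = 0.042 from limma), and the areas overlapped in processed signal. The other genes of that list were not called. Both CD14 probes had -0.27, CD3E had 0.17 and 0.62, and CD4 was well above background on no array. The part of these markers in the PRL values was not tested.

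The genes most like each hormone were sought among 981 to 983 probes with a gene symbol, by the root mean square difference of mean-centred normalized values over the 6 arrays. For IGF1 they were MRPL32 (0.16), CYP2C19 (0.18) and IRF2 (0.19). For IGFBP3 they were IMMT (0.18), ATP6V1H (0.20) and F11R (0.20), and for PRL they were KYNU (0.20), GCG (0.21) and PGF (0.22). The called LEP probe was closest to PTGER3 (0.18), AQP5 (0.19) and PTAFR (0.20), and probe A_70_P026616 to RNASE10 (0.12), BAMBI (0.13) and XDH (0.18). Probe A_70_P017126 was closest to SC5, EDNRB and IFNG, at 0.25 to 0.29. No gene stood among the closest 3 of more than 1 hormone probe. Many of these symbols come from the list of differential probes, so the pool from which they were drawn favours genes that differ between areas.

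**Figure D4:**
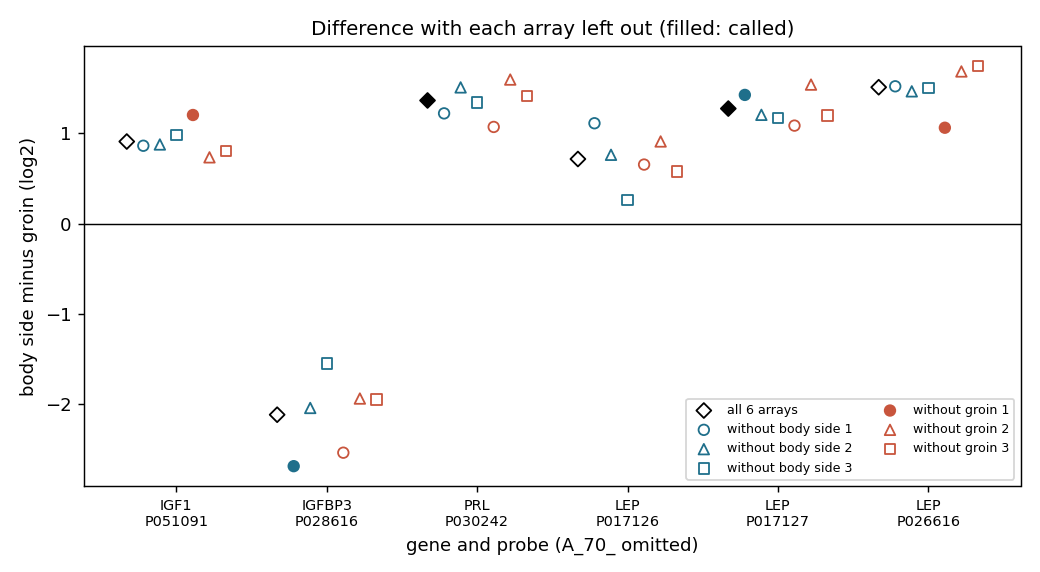
Difference between areas (body side minus groin, log2) of the 6 tested hormone probes with all arrays (black) and with each array left out (blue for a body side array, red for a groin array). Filled symbols were called. PRL was called only with all 6 arrays, LEP probe A_70_P017127 also without body side replicate 1, and IGFBP3 lies below 0 in every case.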

How the data were processed

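RNA of 3 body side and 3 groin skin samples was hybridized to one-colour Agilent arrays. The authors deposited each array's scanner output, whose processed signal intensity is background-subtracted by Agilent Feature Extraction 10.5.1.1, and a table of normalized log2 values. A floor of 5 on the signals followed by log2 and quantile normalization came close to the deposited log2 table (correlation of at least 0.99998 on each array), which served as an alternative. The columns of the authors' own comparisons were not used.

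Here control and outlier spots were left out, log2 processed signals were averaged over the spots of a probe, and quantile normalization was applied. Those probes that 1 or more arrays measured well above background entered limma 3.58.1 in R 4.3.3, with no block. Where some array of an area did not measure a probe well above background, the fold is a bound: each dimmer array counts with its own value or, if that is lower, with the dimmest signal that passed the background limit there. Such a bound concerns the mean normalized values and takes no account of the spread between arrays. By their spot positions all arrays lie on one slide, in 3 columns and 2 rows, whereas the methods state one slide a sample.

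RefSeq names (assembly ARS-UI_Ramb_v3.0) matched 734 of 15008 probes. A further 331 are named only through the study's list of differential probes, of which 1467 rows were used, or a sequence name shared with it. The genes named are all hormone probes, axis genes with a called probe, the receptors, and the 3 genes most like each hormone probe. The hormones and lists were chosen with earlier results of these data known. In 20 simulations of 13752 probes, with 200 changed by 2 on the log2 scale between 3 body side and 3 groin arrays, 68.4% of the changed probes were recovered and 4.64% of calls were false. That change is larger than the 0.71 to 1.51 fitted for IGF1, PRL and the LEP probes, so the recovered share does not describe them. Normalization, background correction, floor, filters, array weights, slide position, replicate block and single arrays were varied as alternatives.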

Additional observations from a re-analysis of the deposited data

How the results depend on the processing

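The IGFBP3 difference was negative under each setting in which it was tested (the filter on all 6 arrays leaves it out), while the 2 calls among the hormones depended on the normalization and on single arrays. With the 75th percentile, no scaling and normexp, the log2 difference was 0.74, 0.30 and 0.19 for LEP probe A_70_P017127 and 0.81, 0.37 and 0.20 for PRL, none called. Without scaling IGFBP3 was called at -3.07 and LEP probe A_70_P017126 turned to -0.21, as did GHR to -0.27 and PRLR probe A_70_P050957 to -0.40. With normexp the 2 long-form PRLR probes had -0.55 and -0.65 and missed the fold threshold. LEP probe A_70_P026616 was called from the deposited table (1.33), with signals under 5 set to 5 (1.35) and with the filter set to all 6 arrays well above background (1.51). Array quality weights gave 1.12 for IGF1, -3.03 for IGFBP3, 1.01 and 1.07 for LEP probes A_70_P017126 and A_70_P026616, all called, and 0.92 for PRL, not called.

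With slide row or slide column as a block, LEP probe A_70_P017127 had 1.16 and 1.03 and PRL 1.16 and 1.46, not called. Within rows 1 and 2 they had 1.70 and 0.62, and 1.33 and 0.99, and within row 2 LEPR probe A_70_P039557 turned to 0.17 and PRLR probe A_70_P050957 to -0.23. The count of 1170 called probes became 2349 without scaling, 444 with normexp, 3367 with array weights, 52 with slide row and 2071 with no fold threshold. It was 0 by limma with slide column and within rows 1 and 2, where 1868, 2943 and 632 probes had an unadjusted p under 0.05. The 6 axis genes called became 1 with normexp, 11 with array weights, 1 with slide row, and 0 with slide column and within either row.

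With a replicate block, the calls were 8 probes and 0 axis genes, PRL had 1.36 (adjusted p = 0.094 from limma) and LEP probe A_70_P017127 had 1.27 (adjusted p = 0.058 from limma). Same-numbered arrays deviated together with correlations of 0.13, 0.073 and 0.057, and not every array correlated best with its own number, so the number is not taken to mark an animal. With 1 array left out, the difference ranged from 0.73 to 1.20 for IGF1, from -2.68 to -1.55 for IGFBP3, from 1.07 to 1.59 for PRL, and from 0.26 to 1.11, 1.08 to 1.54 and 1.06 to 1.74 for LEP probes A_70_P017126, A_70_P017127 and A_70_P026616. Called probes ranged from 11 to 2937 and called axis genes from 0 to 12. The causes of these changes were not tested. The hormone probes lie low in signal, where the median error of a spot was 11.2% to 27.2% of its value, depending on the probe. Single dim spots had larger errors. The IGFBP3 spot read 6.39 with an error of 2.375 on body side replicate 2, and 3.66 with an error of 3.61 on replicate 3.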
